A study of Danio rerio with 4 samples.

Results

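The 37 genes described here carry cells through division. They were listed by symbol and no measured value set the rule, but the list was drawn up with earlier results of these data known. A row of the deposited tables belonged to the set when its symbol was on the list, and 36 of the 37 symbols were found, in 38 of 25432 rows. The gene incenp was not analysed here. The set was kept in 2 arms, 25 symbols of mitosis in 26 rows and 11 symbols of DNA replication in 12 rows. ube2c and rrm2 have 2 Ensembl IDs each, which are given apart, since reads that fit both copies could be lost or assigned to either.

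The skin of adult wild-type zebrafish was measured by single-cell RNA sequencing in 4 libraries, unwounded skin and full-thickness laser wounds at 2, 4 and 6 days post wounding (dpw). Each library is 1 pool of cells from 3 fish, so there is no spread between samples, no test is possible and all differences are given as ratios. Unwounded skin was scraped off and wounds were taken with a punch of 4 mm, so sampling and wounding cannot be told apart. The punch was wider than the wounds, so the wound libraries also hold neighbouring skin in a proportion that is not known. Levels are unique molecular identifiers (UMIs) of a gene per 1000000 UMIs of the same cells (CPM), and intervals are exact 95% intervals that cover counting error only. The UMIs of a dividing cell come together, and spread between cells and fish is not in these intervals.

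A dividing cell first copies its DNA and then separates the copies. For the first task the helicase Mcm2-7, loaded at origins, is activated by GINS, the clamp Pcna holds the polymerases on DNA, and ribonucleotide reductase and thymidylate synthase supply nucleotides. For the second, Cdk1 with cyclin A and B drives entry into mitosis, Aurora and Polo kinases and kinesins build the spindle, and the anaphase-promoting complex then destroys the cyclins. These roles are known from yeast and other vertebrates.

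After the limits on cells (over 500 and under 30000 UMIs, over 200 and under 4500 genes, under 25% mitochondrial UMIs), 5799 cells of unwounded skin and 7751, 7313 and 8308 cells at 2, 4 and 6 dpw remained, with medians between 3986 and 4191 UMIs. Any pair of libraries shared 17 to 27 barcodes. Cells were grouped into 40 clusters without the members, without other cell cycle genes and without genes that followed the members from cell to cell, and clusters were named by fixed markers. The named classes held 2367, 1784, 1524 and 2798 keratinocyte-like cells in unwounded skin, then at 2, 4 and 6 dpw, 1279, 915, 834 and 1122 T cell-like cells, 680, 573, 1312 and 1680 fibroblast-like cells, and 281, 1923, 947 and 405 macrophage-like cells. At least 2 of their own fixed markers were present in 76.3% to 84.9% of T cell-like cells without mitotic members and in 88.2% to 98.4% of those with them, by library, and in 97.3% or more of fibroblast-like cells at each wound stage. The T cell-like cells with mitotic members were deeper, with medians of 5117 to 9370 UMIs by library against 1870 to 2213 UMIs without them. Of the fibroblast-like cells, cluster 2 was the largest at 4 dpw and cluster 1 in the other 3 libraries. Because pieces of tissue yield cells unequally, a class that is rarer and a class that was dissociated less well cannot be told apart.

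The members met in the same cells. Over all libraries, 5.66% of cells had UMIs of at least 2 different mitotic members, and these cells held 10.24% of all UMIs. For 24 of the 26 mitotic rows, between 80.5% and 97.3% of the UMIs lay in cells with at least 2 other mitotic members, led by bub1 at 97.3% and top2a at 97.1%. The exceptions were birc5a, a survivin-type subunit of the chromosomal passenger complex, at 67.3%, and ube2c (ENSDARG00000101618), at 12.9% of its 93 UMIs, whereas the other ube2c row (ENSDARG00000114670) had 3592 UMIs and 89.5%. Of the replication arm, both rows of rrm2, the regulatory subunit of ribonucleotide reductase, were as tightly bound to mitotic members, at 88.9% and 88.4%. The 6 helicase genes mcm2 to mcm7 stood at 32.9% to 39.2%, pcna at 53.4%, gins2 at 53.5%, rrm1 at 61.0% and tyms at 65.1%, so much of this arm was counted in cells with fewer than 2 other mitotic members. Cells with at least 2 mitotic members were deep, with a median of 11641.5 UMIs against 3781 UMIs in the other cells. Over 41 groups of class and stage with at least 50 cells, the log2 levels of the summed arms had a Pearson correlation of 0.76, as a description, since the groups share libraries and depth.

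Over all cells of a library, the mitotic members summed to 252 CPM in unwounded skin, then 248, 221 and 134 CPM at 2, 4 and 6 dpw, and the replication members to 219 CPM in unwounded skin, then 216, 174 and 157 CPM at 2, 4 and 6 dpw. Against unwounded skin the mitotic sum was 0.987 (0.962 to 1.01) at 2 dpw, 0.879 (0.857 to 0.903) at 4 dpw and 0.534 (0.518 to 0.55) at 6 dpw. The replication sum was 0.987 (0.961 to 1.01), 0.796 (0.774 to 0.82) and 0.715 (0.695 to 0.736) at the same stages. The 2 dpw ratios are near 1 and their intervals include it. At 4 dpw the mitotic ratio was 1.0 when every cell was given the same weight, so its direction at that stage depends on the weighting. At 6 dpw both sums were lower than in unwounded skin under each alternative computed. By member, with counts under 3 UMIs taken as 3, 9 of 26 mitotic rows were at least 2-fold lower at 6 dpw, among 7.5% of the 17455 genes counted there, and 1 of 12 replication rows was. At 2 and 4 dpw no member row was 2-fold higher or lower over all cells, where 13.7% and 17% of genes were 2-fold higher and 11.3% and 10.9% were 2-fold lower.

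These totals hide unequal classes. T cell-like cells had the highest mitotic level of the 4 main classes in each library, with 1289 CPM in unwounded skin, then 1501, 1230 and 896 CPM at 2, 4 and 6 dpw. They were 22.1% of the cells of unwounded skin and held 49.6% of its mitotic UMIs. At 2, 4 and 6 dpw they were 11.8%, 11.4% and 13.5% of cells and held 31.5%, 27.6% and 33.2% of mitotic UMIs. Keratinocyte-like cells, the epidermal bulk, held 32.5% of mitotic UMIs in unwounded skin and 20.1%, 23.5% and 21.6% at 2, 4 and 6 dpw, as 40.8%, 23.0%, 20.8% and 33.7% of cells. The share of fibroblast-like cells was 0.835% in unwounded skin and 9.97%, 15.2% and 7.09% at 2, 4 and 6 dpw, as 11.7%, 7.39%, 17.9% and 20.2% of cells. Macrophage-like cells held 4.23% in unwounded skin, 18% at 2 dpw, 7.5% at 4 dpw and 0.917% at 6 dpw, and their share of cells moved likewise at 2 dpw, with 4.85% of cells in unwounded skin and 24.8%, 12.9% and 4.87% at 2, 4 and 6 dpw. Clusters left unnamed held 8.28% of mitotic UMIs in unwounded skin and 11.8%, 9.26% and 24.1% at 2, 4 and 6 dpw, as 9.69%, 13.4%, 17% and 10.9% of cells. Of their 1839 mitotic UMIs at 6 dpw, 910 lay in cluster 34, which is described with the smaller classes. Some unnamed clusters had markers of a class and were set aside by other rules. Among them, cluster 26, led by cdh15, plaub and col18a1b among others, had 4 muscle cell and 3 fibroblast markers. It held 5 cells in unwounded skin and 66, 170 and 94 at 2, 4 and 6 dpw. In a pooled clustering without integration, a cluster led by plaub and col18a1b was fibroblast-like, with 9 fibroblast and 5 muscle cell markers. Cluster 27, led by col10a1a, had 7 fibroblast and 5 scale cell markers. The fibroblast-like values do not include clusters 26 and 27. Replication UMIs were divided otherwise: T cell-like cells held 39.5% in unwounded skin and 22.4%, 20.2% and 14.8% at 2, 4 and 6 dpw, and at 6 dpw keratinocyte-like cells held 46.2%.

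**Figure D1:**
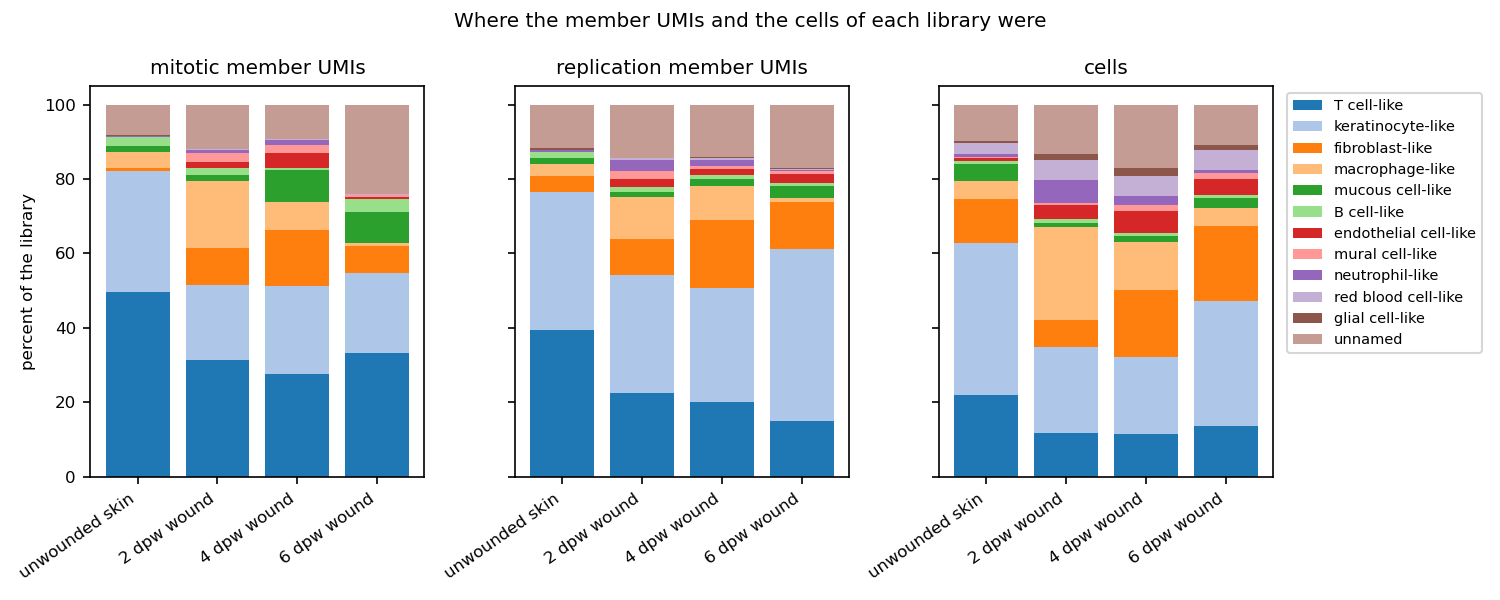
Stacked bars give, for each of the 4 libraries, the percentage of mitotic member UMIs (left), replication member UMIs (middle) and cells (right) by class. T cell-like cells take 49.6% of mitotic UMIs in unwounded skin and fibroblast-like cells grow to 15.2% at 4 dpw.

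In fibroblast-like cells the mitotic arm was higher in the wound at 2 and 4 dpw, with the strongest contrast among the 4 main classes at 2 dpw. At 6 dpw the sum was higher by less, and its level in cluster 18 was near that of unwounded skin. The share of cells with mitotic members at 6 dpw, given further on, did not stand above that of red blood cell-like cells. The sum was 23.7 CPM in unwounded skin, then 220.3, 115 and 45.1 CPM at 2, 4 and 6 dpw, hence 9.31 (7.53 to 11.6) at 2 dpw, 4.85 (3.93 to 6.05) at 4 dpw and 1.91 (1.52 to 2.41) at 6 dpw. The replication arm moved less, with 111 CPM in unwounded skin, then 191, 108 and 95.2 CPM at 2, 4 and 6 dpw, or 1.72 (1.54 to 1.93), 0.978 (0.879 to 1.09) and 0.86 (0.769 to 0.963). Replication ratios of single classes were not recomputed under the alternatives. The TMM factors of this class, 1.09 in unwounded skin and 0.943 at 6 dpw, would raise the 6 dpw replication ratio, so no direction is read for it. At 2 dpw 21 of the 22 mitotic rows with at least 20 UMIs in both libraries together were at least 2-fold higher, where 12% of genes were. At 4 dpw 18 of 22 were, where 10.3% of genes were, and at 6 dpw 6 of 10, where 8.17% of genes were. Of the mitotic rows only mki67 reached 20 UMIs in unwounded skin alone, so the wound libraries brought the others into the count. Of the rows left out at 2 dpw, ccnb2 had a ratio of 1.81, the sparse ube2c row 1.21 and bub1bb 2.72. The rows also share cells and are not separate support. Of the 12 replication rows, 5 were 2-fold higher at 2 dpw and 4 at 4 dpw. The median log2 ratio of the counted mitotic rows was 2.96, 2.25 and 1.45 at 2, 4 and 6 dpw, against 0.02, -0.16 and -0.14 over all genes counted. The row that was counted and not 2-fold higher at 2 dpw was aurka.

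Few cells carried this. The cells with the most mitotic UMIs that together held 50% of the fibroblast-like sum were 9 of 680 in unwounded skin and 7 of 573, 9 of 1312 and 6 of 1680 at 2, 4 and 6 dpw. Without the single cell with most mitotic UMIs, the level was 19.4 CPM in unwounded skin and 192, 100.1 and 39.0 CPM at 2, 4 and 6 dpw. The contrast was present in each of the 3 fibroblast-like clusters at 2 and 4 dpw. Cluster 1, led by aqp3b and col6a4a, had 28.5 CPM in unwounded skin, then 163, 308 and 86.4 CPM at 2, 4 and 6 dpw. Cluster 2, led by ucmaa and matn4, had 9.82 CPM in unwounded skin, then 332, 35.1 and 14.3 CPM at 2, 4 and 6 dpw. Cluster 18, led by vcana and fgl2b, had 31 CPM in unwounded skin, then 129.6, 224 and 32 CPM at 2, 4 and 6 dpw. Cluster 2 thus peaked at 2 dpw and clusters 1 and 18 at 4 dpw. Depth moved with wounding in this class, with medians of 4295.5 UMIs per cell in unwounded skin and 9267, 10685 and 6042.5 at 2, 4 and 6 dpw.

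Keratinocyte-like cells went another way. Their mitotic sum was 132 CPM in unwounded skin, then 144, 174 and 55.5 CPM at 2, 4 and 6 dpw, or 1.08 (1.03 to 1.14), 1.32 (1.25 to 1.38) and 0.419 (0.395 to 0.444) at 2, 4 and 6 dpw. With TMM factors the 2 dpw ratio was 0.972, so no direction is read at that stage. Their replication sum was 131 CPM in unwounded skin, then 197, 179 and 139 CPM at 2, 4 and 6 dpw, or 1.51 (1.44 to 1.58), 1.37 (1.3 to 1.44) and 1.06 (1.01 to 1.11). The arms came apart at 6 dpw: 16 of 24 counted mitotic rows were at least 2-fold lower, where 6.08% of genes were, and 0 of the 12 replication rows were 2-fold lower or higher, where 4.45% of genes were higher. At 2 dpw 1 of 23 mitotic rows and 1 of 12 replication rows were 2-fold higher, where 13.0% of genes were, and at 4 dpw 2 of 23 and 1 of 12 were, where 9.04% of genes were and 6.03% were lower. These counts at 2 and 4 dpw do not exceed the share over all genes for mitotic rows. The medians of the mitotic rows were -0.10, 0.31 and -1.18 on the log2 scale at 2, 4 and 6 dpw and those of the replication rows 0.52, 0.52 and 0.02, against 0.16, 0.03 and -0.15 over all genes.

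Within the epidermis, levels differed between clusters. Clusters 4 and 13 had an equal number of basal layer markers and differed. Cluster 4, named by these markers, had 123 CPM in unwounded skin, then 141, 231 and 25.9 CPM at 2, 4 and 6 dpw. Cluster 13, left without a layer name because it was led by other genes, among them the prostaglandin D synthase genes ptgdsb.1 and ptgdsb.2, had 81.5 CPM in unwounded skin, then 61.2, 38 and 13.5 CPM at 2, 4 and 6 dpw, so that it was lower at each wound stage. Among clusters with superficial layer markers, cluster 12 had 147 CPM in unwounded skin, then 171, 345 and 108 CPM at 2, 4 and 6 dpw and cluster 19 had 158 CPM in unwounded skin, then 316, 346 and 250 CPM at 2, 4 and 6 dpw. Cluster 6, led by icn2 and krt96 and not named by layer, had 179.8 CPM in unwounded skin, then 269, 222 and 47.7 CPM at 2, 4 and 6 dpw. In cluster 15, led by the sterol synthesis genes ebp and msmo1, mitotic UMIs stood at 116 CPM in unwounded skin, then 113, 19.7 and 21.9 CPM at 2, 4 and 6 dpw, while its replication sum was 78.8 CPM in unwounded skin, then 161, 179 and 44.3 CPM at 2, 4 and 6 dpw. The mitotic sum at 6 dpw was lower than in unwounded skin in 8 of the 10 keratinocyte-like clusters, the exceptions being clusters 19 and 31, and in cluster 31 a single cell decided this, with 4.87 CPM at 6 dpw and 24.9 CPM in unwounded skin without the top cell of each library.

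In macrophage-like cells the mitotic sum was 181 CPM in unwounded skin, then 144, 125 and 28.6 CPM at 2, 4 and 6 dpw, or 0.795 (0.72 to 0.88), 0.694 (0.62 to 0.779) and 0.158 (0.121 to 0.204) at 2, 4 and 6 dpw. The unwounded value rested on 281 cells, and 3 of them held 50% of its mitotic UMIs. Without the top cell of each library the ratio at 2 dpw was 1.04, and in a pooled clustering without integration it was 3.11 at 2 dpw and 2.10 at 4 dpw, so no direction is read at 2 and 4 dpw. In that clustering 1648 cells of this class stayed macrophage-like and 1741 were unnamed. It had 77 macrophage-like cells in unwounded skin, so the limits of this class are not firm. The 6 dpw ratio was at or under 0.440 in each alternative computed. There 10 of 11 counted mitotic rows were at least 2-fold lower, where 8.16% of genes were and 7.26% were higher, and 4 of 5 replication rows were. The class had 461 mitotic UMIs in unwounded skin and 70 at 6 dpw, so mitotic rows were counted mainly through unwounded skin. As 3 cells held 50% of those 461 UMIs, the rows are not separate support. The counts at 2 dpw were 1 of 22 mitotic rows higher and 2 lower, where 8.84% of genes were higher and 11% lower, and at 4 dpw 1 of 20 higher and 2 lower, where 9.64% were higher and 8.02% lower. The replication sum was 115 CPM in unwounded skin, then 78.7, 120 and 38.8 CPM at 2, 4 and 6 dpw, or 0.686 (0.604 to 0.781), 1.05 (0.914 to 1.2) and 0.338 (0.266 to 0.428). T cell markers were frequent in the unwounded macrophage-like cells, at least 2 of them in 47.5% of cells without and 40.0% of the 5 cells with mitotic members, against 5.32% and 4.17% at 2 dpw. Leaving out cells with at least 2 T cell markers gave mitotic ratios of 0.556, 0.467 and 0.0619 at 2, 4 and 6 dpw. Cells with these markers need not be T cells, since cluster 21 of this class had 3 T cell markers beside 9 macrophage ones. It held 102 of the 281 cells in unwounded skin and 299 of the 1923 cells at 2 dpw. Whether the cells left out were T cells was not tested. Cluster 3, led by mrc1b, had 286 CPM in unwounded skin, then 176, 84.9 and 3.98 CPM at 2, 4 and 6 dpw, and cluster 21, led by cxcl19 and fabp7b, had 16.7 CPM in unwounded skin, then 61.1, 103 and 61.2 CPM at 2, 4 and 6 dpw.

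T cell-like cells had 893 CPM in unwounded skin, then 928, 708 and 467 CPM at 2, 4 and 6 dpw for the replication arm beside the mitotic levels given above. The mitotic ratios were 1.16 (1.12 to 1.21), 0.955 (0.914 to 0.997) and 0.695 (0.663 to 0.729) at 2, 4 and 6 dpw, and the replication ratios 1.04 (0.989 to 1.09), 0.793 (0.75 to 0.838) and 0.523 (0.491 to 0.557). The mitotic ratio at 4 dpw took values on both sides of 1 across the alternatives and gives no direction. At 6 dpw 7 of 12 replication rows were at least 2-fold lower, where 6.61% of genes were, against 2 of 23 mitotic rows. No mitotic or replication row was 2-fold higher at 2 dpw, where 3.0% of genes were and 4.19% were lower, and 1 of 25 mitotic rows was 2-fold lower there. The 4 dpw counts were 0 of 24 mitotic rows higher and 1 lower, where 2.90% of genes were higher and 4.76% lower. Cluster 16, led by il2rb, had 2085 CPM in unwounded skin, then 2522, 1102 and 1582 CPM at 2, 4 and 6 dpw for the mitotic arm and was highest of the T cell-like clusters except at 4 dpw. Cluster 0, led by the chemokine receptor gene ccr10, had 1254 CPM in unwounded skin, then 1343, 1892 and 868 CPM at 2, 4 and 6 dpw, and was highest at 4 dpw, where cluster 16 had its lowest value.

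The arms came apart in cluster 11, a T cell-like cluster led by ccr9a, a receptor of thymic homing in mammals, and myca. Its replication sum was 726 CPM in unwounded skin, then 694, 295 and 131 CPM at 2, 4 and 6 dpw, and its mitotic sum 139 CPM in unwounded skin, then 334, 178 and 187 CPM at 2, 4 and 6 dpw. Here pcna had 285 CPM in unwounded skin, then 281, 172 and 66.9 CPM at 2, 4 and 6 dpw and mcm6 had 60.9 CPM in unwounded skin, then 38.1, 20.8 and 6.08 CPM at 2, 4 and 6 dpw, while mitotic members differed among themselves. The most abundant, mki67, had 38.9 CPM in unwounded skin, then 107, 37.8 and 35 CPM at 2, 4 and 6 dpw, so that it was higher at 2 dpw and near unwounded skin after it. top2a had 2.59 CPM in unwounded skin, then 24, 17 and 13.7 CPM at 2, 4 and 6 dpw, from 2 UMIs in unwounded skin. cdk1 had 6 UMIs in unwounded skin and 2, 4 and 2 at 2, 4 and 6 dpw, and cdc20 8 UMIs in unwounded skin and 4, 2 and 3 at these stages. The cluster had 206 cells in unwounded skin and 243, 179 and 248 at 2, 4 and 6 dpw, and few of them carried the sum. In all, 4 cells held 50% of the replication UMIs in unwounded skin, 4 at 2 dpw, 4 at 4 dpw and 9 at 6 dpw. This cluster was singled out after its values had been seen.

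**Figure D2:**
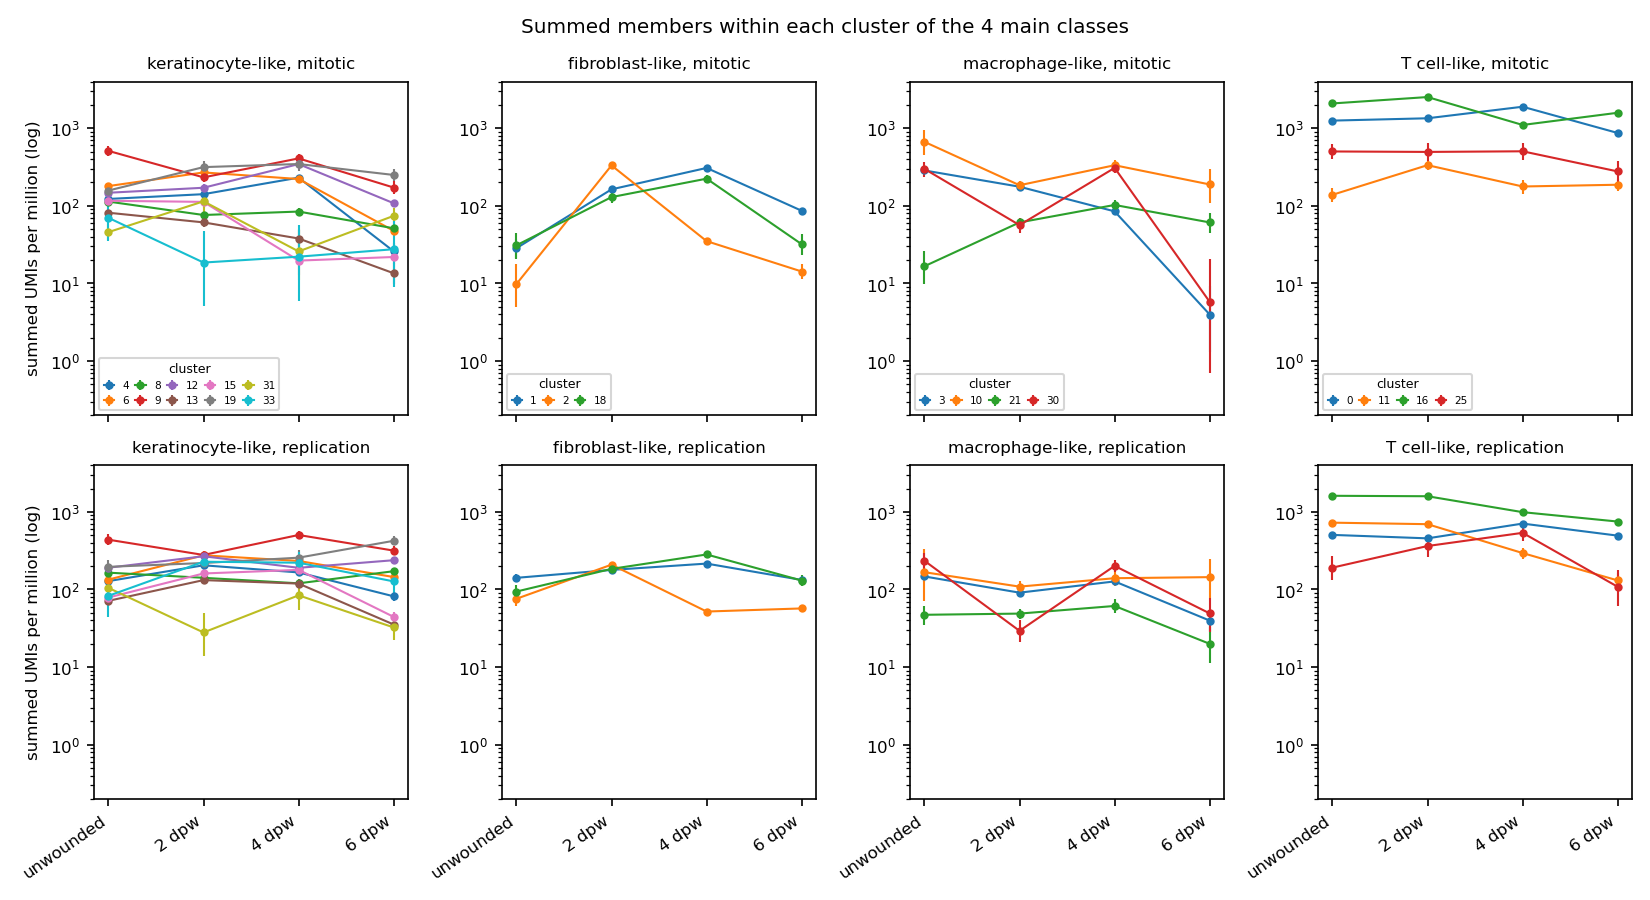
Summed mitotic (upper row) and replication members (lower row) in CPM on a log axis, by stage, for each cluster of the 4 main classes, with exact 95% Poisson intervals. The 3 fibroblast-like clusters lie at 9.82 to 31.0 CPM in unwounded skin and at 130 to 332 CPM at 2 dpw for mitotic members.

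Smaller classes held fewer cells and rest on single cells more. Cluster 20, led by muc5.2, a gel-forming mucin gene, and agr2 and called mucous cell-like by its markers, numbered 261 cells in unwounded skin and 95, 111 and 218 at 2, 4 and 6 dpw and had mitotic levels of 132 CPM in unwounded skin, then 479, 1395 and 505 CPM at 2, 4 and 6 dpw. The name is weak, since at least 2 mucous cell markers were found in 44.0% to 58.8% of its cells without mitotic members, by library, while at least 4 keratinocyte markers were found in 90% to 96.9% of them. All its cells with mitotic members had at least 4 keratinocyte markers, and 60.0% to 100% of them at least 2 mucous cell markers. The leading genes of cluster 20 also include avil, adgrf3a and hmx3a. In the pooled clustering these led a keratinocyte-like cluster, whereas muc5.2 and agr2 led an unnamed one. There 305 of the 685 cells of cluster 20 were keratinocyte-like and 380 unnamed. Without the top cell the levels were 74.9 CPM in unwounded skin and 372, 1164 and 441 CPM at 2, 4 and 6 dpw. All 21 counted mitotic rows were at least 2-fold higher at 4 dpw, where 8.32% of genes were, with 7 of 7 at 2 dpw (6.84% of genes, and 8.65% lower) and 15 of 17 at 6 dpw (6.54% of genes, and 5.89% lower). Except for mki67, these rows had under 20 UMIs in unwounded skin, so the wound library brought them into the count. Some rows left out at 2 dpw went the other way, with 13 UMIs of kif23 in unwounded skin and 0 at 2 dpw, and 12 and 3 of nusap1. The rows also share cells and are not separate support. The mitotic UMIs of 4 cells made up 50% of the sum at 4 dpw. Endothelial cell-like cells had 9.46 CPM in unwounded skin, then 185, 289 and 30.3 CPM at 2, 4 and 6 dpw, with 1 mitotic UMI in the 42 cells of unwounded skin. Mural cell-like cells had 81.2 CPM in unwounded skin, then 1047, 345 and 116 CPM at 2, 4 and 6 dpw in 16, 54, 131 and 122 cells. Without the top cell these were 0 CPM in unwounded skin and 613, 17.5 and 20.2 CPM at 2, 4 and 6 dpw, so that the level at 2 dpw, where 4 of 54 thinned cells had mitotic members, did not rest on 1 cell. B cell-like cells had 770.1 CPM in unwounded skin, then 554, 285 and 726 CPM at 2, 4 and 6 dpw. All 3 of their thinned cells with mitotic members in unwounded skin and all 3 at 6 dpw held at least 2 T cell markers, against 32.7% and 37% of the others, and 0 and 1 of them held at least 2 B cell markers, and what part these cells have in the level was not tested. Red blood cell-like cells, which circulate after their last division, had 48.1 CPM in unwounded skin, then 116, 45.9 and 30.7 CPM at 2, 4 and 6 dpw, and neutrophil-like cells 108 CPM in unwounded skin, then 62.6, 264 and 11.5 CPM at 2, 4 and 6 dpw. Cluster 34, which no marker list named and which was led by pou2f3 and gng13a, had 548 CPM in unwounded skin, then 822, 597 and 1129 CPM at 2, 4 and 6 dpw in 90, 38, 35 and 74 cells.

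**Figure D3:**
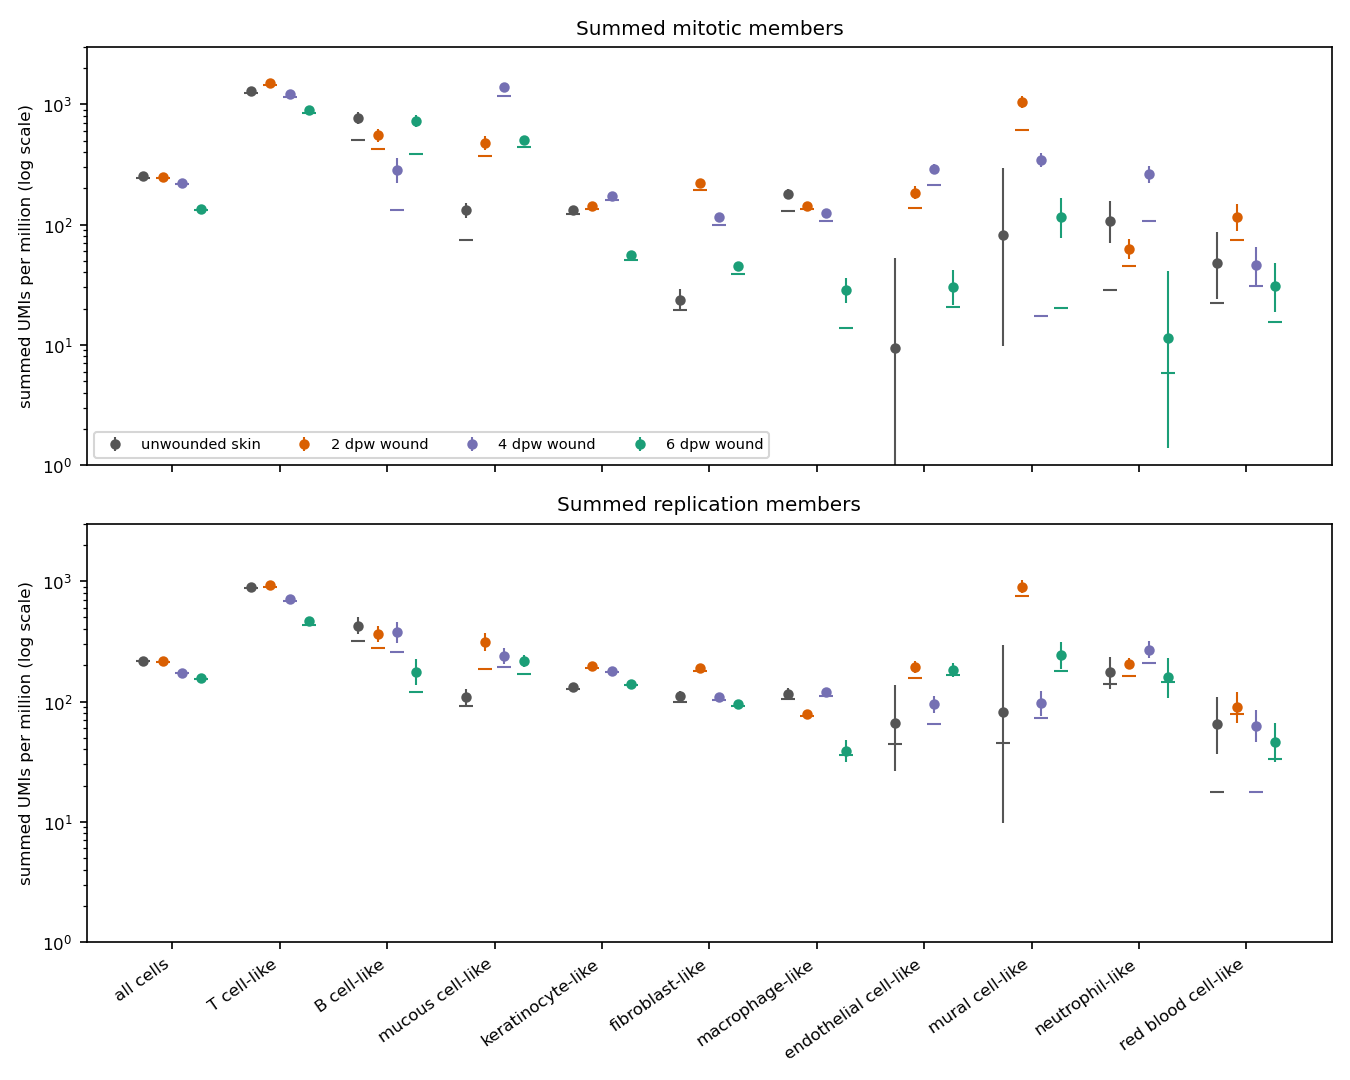
Points give summed mitotic (top) and replication members (bottom) in CPM on a log axis, by stage, with exact 95% Poisson intervals, and dashes give the level without the 1 cell with most such UMIs (not drawn at 0). T cell-like cells lie between 896 and 1501 CPM for mitotic members, and fibroblast-like cells between 23.7 and 220 CPM.

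A level per class does not say how many cells hold the UMIs. The share of cells with UMIs of at least 2 different mitotic members was taken after each cell was thinned to 500 UMIs, so that depth was equal. Over all cells it was 2.0% of 5799 cells in unwounded skin (1.66 to 2.39), then 1.99% (1.69 to 2.32), 1.91% (1.61 to 2.26) and 1.12% (0.904 to 1.37) at 2, 4 and 6 dpw. T cell-like cells stood highest of the main classes, with 4.77% of 1279 cells in unwounded skin (3.67 to 6.08), then 6.12% (4.66 to 7.87), 6.12% (4.59 to 7.96) and 3.39% (2.41 to 4.62) at 2, 4 and 6 dpw. Keratinocyte-like cells had 1.14% of 2367 cells in unwounded skin (0.753 to 1.66), then 1.12% (0.686 to 1.73), 1.44% (0.907 to 2.18) and 0.679% (0.409 to 1.06) at 2, 4 and 6 dpw. In fibroblast-like cells no cell of 680 passed in unwounded skin, which by a floor of 3 cells allows up to 0.441% of cells with such UMIs at this depth, while 5 of the 680 passed unthinned, and 10 of 573, 17 of 1312 and 2 of 1680 passed at 2, 4 and 6 dpw, or 1.75% (0.84 to 3.19), 1.30% (0.757 to 2.07) and 0.119% (0.0144 to 0.429). In macrophage-like cells 5 of 281 passed in unwounded skin and 24 of 1923, 11 of 947 and 2 of 405 at 2, 4 and 6 dpw, and all these Clopper-Pearson intervals overlap. Mucous cell-like cells had 1.15% of 261 cells in unwounded skin (0.238 to 3.32), then 5.26% (1.73 to 11.9), 8.11% (3.77 to 14.8) and 4.13% (1.9 to 7.69) at 2, 4 and 6 dpw. Unthinned, the shares were 9.38% in unwounded skin and 10.6%, 10.9% and 5.53% at 2, 4 and 6 dpw in T cell-like cells, 4.77%, 9.64%, 9.12% and 3.57% in keratinocyte-like cells, 0.735%, 11%, 5.79% and 1.96% in fibroblast-like cells, and 5.34%, 5.36%, 4.65% and 0.494% in macrophage-like cells, with stages in the same order.

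Free RNA can place UMIs in cells that do not express a gene, so cells that no longer divide are given for comparison. Red blood cell-like cells, with medians of 751 to 931.5 UMIs, had 0 of 166 cells in unwounded skin, 3 of 418 at 2 dpw, 1 of 381 at 4 dpw and 0 of 448 at 6 dpw. Neutrophil-like cells, with medians of 2533 to 3823.5 UMIs, had 1 of 56, 3 of 463, 3 of 178 and 0 of 70 at these stages. Of the neutrophil-like cells that passed, 1 of 3 at 2 dpw and 2 of 3 at 4 dpw held at least 2 T cell markers, against 2.61% and 1.71% of the others, whereas none of the red blood cell-like ones did. The intervals of the T cell-like shares lie above those of red blood cell-like cells in each library. The share of fibroblast-like cells at 6 dpw, 0.119%, lies within the red blood cell-like interval there (0 to 0.82%) and does not stand above it. The intervals of keratinocyte-like, macrophage-like and fibroblast-like cells overlap the red blood cell-like one in each of the 4 libraries. Thinned shares thus do not set these classes apart from red blood cell-like cells at this number of cells. Free RNA can make up a larger part of the UMIs of such shallow cells. Their share need therefore not be the background of deeper classes, which was not tested. The macrophage-like share of unwounded skin, 1.78%, is at the neutrophil-like 1.79% there.

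**Figure D4:**
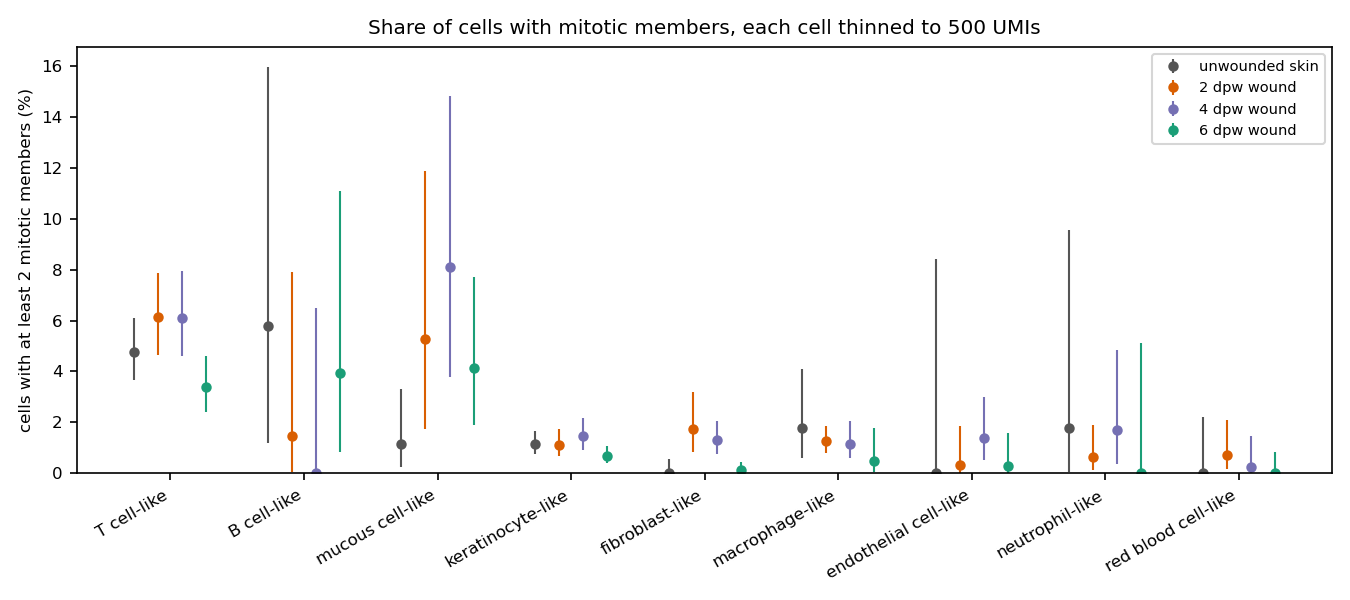
Share of cells with at least 2 different mitotic members after thinning to 500 UMIs, in percent, by class and stage, with Clopper-Pearson 95% intervals. T cell-like cells reach 6.12% at 2 and 4 dpw, and no fibroblast-like cell of unwounded skin passed.

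Markers of another cell type moved with these cells in places. Keratinocyte-like cells with mitotic members had at least 2 T cell markers in 7.41% of 27 cells in unwounded skin and 5.00%, 4.55% and 10.5% of 20, 22 and 19 cells at 2, 4 and 6 dpw, against 1.97%, 1.59%, 0.999% and 1.04% of the other keratinocyte-like cells. Fibroblast-like cells with mitotic members had them in 2 of 10, 1 of 17 and 1 of 2 cells at 2, 4 and 6 dpw, against 3.37%, 1.47% and 2.09% of the others. At least 4 keratinocyte markers were also found in T cell-like cells. With mitotic members the shares were 32.8% in unwounded skin and 37.5%, 31.4% and 23.7% at 2, 4 and 6 dpw. Without mitotic members they were 31.8%, 22.4%, 16.5% and 19.1%. The part of depth in such shares was not tested. Without all cells that held at least 2 T cell markers the fibroblast-like mitotic ratios were 9.18, 5.27 and 2.18 at 2, 4 and 6 dpw and the keratinocyte-like ones 1.07, 1.22 and 0.404. Scrublet called 1, 0, 1 and 0 cells doublets in unwounded skin, then at 2, 4 and 6 dpw, too few for it to have worked, so doublets were not removed.

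By phase, thinned cells with at least 2 replication members and fewer than 2 mitotic ones were compared with cells that had mitotic members. Over all cells 58 of 5799 cells in unwounded skin, 86 of 7751 at 2 dpw, 75 of 7313 at 4 dpw and 63 of 8308 at 6 dpw had replication members alone. Those with mitotic members alone numbered 100, 144, 128 and 79, and those with both 16, 10, 12 and 14. In keratinocyte-like cells replication alone was seen in 15 cells of unwounded skin and 26, 16 and 28 cells at 2, 4 and 6 dpw, and mitotic members alone in 27, 20, 21 and 16 cells. In T cell-like cells replication alone was seen in 21 cells of unwounded skin and 21, 21 and 4 cells at 2, 4 and 6 dpw, and mitotic members alone in 46, 48, 43 and 31 cells. Replication alone thus made up 0.357% of T cell-like cells at 6 dpw (0.0972 to 0.91), against 1.64% (1.019 to 2.50) in unwounded skin. Without pcna, which is also used in DNA repair, these values were 0.178% at 6 dpw and 0.782% in unwounded skin.

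The members are described next by role. Of the proliferation mark, mki67, a protein that coats mitotic chromosomes, T cell-like cells had 291 CPM in unwounded skin, then 330.5, 256 and 188 CPM at 2, 4 and 6 dpw. Keratinocyte-like cells had 23.4 CPM in unwounded skin, then 24.7, 29 and 10.4 CPM at 2, 4 and 6 dpw, so that 6 dpw was 0.443 (0.385 to 0.508) of unwounded skin. Fibroblast-like cells had 6.5 CPM in unwounded skin, then 27.7, 12.6 and 8.26 CPM at 2, 4 and 6 dpw, with a ratio of 4.26 (2.79 to 6.76) at 2 dpw. This was the smallest 2 dpw ratio of the fixed mitotic examples in that class, and its 25 UMIs in unwounded skin were the most of any mitotic member there. Macrophage-like cells had 29.4 CPM in unwounded skin, then 18.4, 15.9 and 2.45 CPM at 2, 4 and 6 dpw, with a ratio of 0.0835 (0.0297 to 0.19) at 6 dpw.

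Among cyclins and their kinase, cdk1, the catalytic partner of A and B cyclins, had 62.6 CPM in unwounded skin, then 84.8, 55.9 and 43.5 CPM at 2, 4 and 6 dpw in T cell-like cells. In keratinocyte-like cells cdk1 stood at 6.06 CPM in unwounded skin, then 7.16, 9.45 and 3.4 CPM at 2, 4 and 6 dpw. In fibroblast-like cells cdk1 had no UMI in unwounded skin and 92, 135 and 27 UMIs at 2, 4 and 6 dpw, at least 18.5-fold, 11.1-fold and 2.89-fold higher with a floor of 3 UMIs for the library at 0. Its macrophage-like levels were 11.8 CPM in unwounded skin, then 12.2, 9.93 and 1.64 CPM at 2, 4 and 6 dpw, and the ratio at 2 dpw was 1.04. The mitotic cyclin ccnb1 had 3.07 CPM in unwounded skin, then 3.25, 4.98 and 1.41 CPM at 2, 4 and 6 dpw in keratinocyte-like cells and 0.26 CPM in unwounded skin, then 9.75, 3.71 and 1.42 CPM at 2, 4 and 6 dpw in fibroblast-like cells, where unwounded skin gave 1 UMI. T cell-like ccnb1 had 33.7 CPM in unwounded skin, then 31.9, 48.4 and 30.1 CPM at 2, 4 and 6 dpw and a ratio of 1.44 (1.12 to 1.84) at 4 dpw. In macrophage-like cells ccnb1 had 1.57 CPM in unwounded skin, then 4.21, 3.55 and 0.409 CPM at 2, 4 and 6 dpw, from 4 UMIs in unwounded skin.

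The S and G2 phase cyclin ccna2 had 51.6 CPM in unwounded skin, then 49.2, 47.2 and 27.6 CPM at 2, 4 and 6 dpw in T cell-like cells, on the other side of 1 from the sum at 2 dpw. Its keratinocyte-like levels were 1.5 CPM in unwounded skin, then 1.68, 2.65 and 0.909 CPM at 2, 4 and 6 dpw, its fibroblast-like levels 0.26 CPM in unwounded skin, then 4.09, 2.56 and 0.834 CPM at 2, 4 and 6 dpw and its macrophage-like levels 2.35 CPM in unwounded skin, then 1.59, 1.42 and 0.409 CPM at 2, 4 and 6 dpw. The second B cyclin, ccnb2, was sparse, with 169 UMIs in all libraries and under 20 UMIs in each pair of libraries of fibroblast-like and macrophage-like cells. The Cdk-binding subunit cks1b had 201 UMIs in keratinocyte-like cells of unwounded skin and 161, 169 and 119 at 2, 4 and 6 dpw, and 5 UMIs in fibroblast-like cells of unwounded skin and 91, 102 and 31 at these stages.

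Of the mitotic kinases, plk1, the Polo kinase, had 54.5 CPM in unwounded skin, then 56.3, 44.2 and 27.2 CPM at 2, 4 and 6 dpw in T cell-like cells and a ratio of 0.50 (0.381 to 0.65) at 6 dpw. In keratinocyte-like cells plk1 had 4.0 CPM in unwounded skin, then 4.42, 4.85 and 1.38 CPM at 2, 4 and 6 dpw. In fibroblast-like cells plk1 had 0.26 CPM in unwounded skin, then 5.5, 3.46 and 0.834 CPM at 2, 4 and 6 dpw, with a ratio of 21.2 (3.56 to 859.5) at 2 dpw from 1 UMI in unwounded skin. In macrophage-like cells it had 3.13 CPM in unwounded skin, then 3.93, 2.69 and 0.409 CPM at 2, 4 and 6 dpw. Aurora kinase B, aurkb, of the passenger complex, had 3 UMIs in fibroblast-like cells of unwounded skin and 52, 65 and 25 UMIs at 2, 4 and 6 dpw. Aurora kinase A, aurka, of the spindle poles, had 2.08 CPM in unwounded skin, then 3.617, 1.98 and 0.50 CPM at 2, 4 and 6 dpw in the same cells and ran against the sum at 6 dpw, with a ratio of 0.241 (0.0688 to 0.791). Its T cell-like levels were 13.1 CPM in unwounded skin, then 11.9, 12.8 and 9.19 CPM at 2, 4 and 6 dpw and its macrophage-like levels 1.96 CPM in unwounded skin, then 2.05, 1.28 and 0.818 CPM at 2, 4 and 6 dpw.

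Anaphase is set off by cdc20, the activator of the anaphase-promoting complex, and ube2c, the ubiquitin-conjugating enzyme that works with it. In T cell-like cells the abundant ube2c row (ENSDARG00000114670) had 57.8 CPM in unwounded skin, then 79.7, 95.2 and 72.1 CPM at 2, 4 and 6 dpw, with ratios of 1.65 (1.38 to 1.97) at 4 dpw and 1.25 (1.03 to 1.51) at 6 dpw. It was thus the mitotic member that was higher at 6 dpw in T cell-like cells with an interval above 1, while the sum was lower. In macrophage-like cells this row had 11.8 CPM in unwounded skin, then 15.6, 10.1 and 3.68 CPM at 2, 4 and 6 dpw, and in fibroblast-like cells 3 UMIs in unwounded skin and 147, 272 and 46 at 2, 4 and 6 dpw. The second row of ube2c had at most 18 UMIs in any library of the 4 main classes. Of cdc20, keratinocyte-like cells had 4.23 CPM in unwounded skin, then 3.91, 4.28 and 1.99 CPM at 2, 4 and 6 dpw, and fibroblast-like cells 1 UMI in unwounded skin and 51, 59 and 16 at 2, 4 and 6 dpw.

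Of the chromosomal passenger complex, birc5a behaved apart from other mitotic members in keratinocyte-like cells. It had 8.08 CPM in unwounded skin, then 20.7, 16.9 and 6.09 CPM at 2, 4 and 6 dpw, with ratios of 2.56 (2.16 to 3.03) at 2 dpw, 2.09 (1.74 to 2.51) at 4 dpw and 0.754 (0.616 to 0.923) at 6 dpw, the largest mitotic ratio at 2 dpw there. In fibroblast-like cells birc5a had 0.78 CPM in unwounded skin, then 10.5, 4.74 and 2.67 CPM at 2, 4 and 6 dpw. T cell-like cells had 42.7 CPM in unwounded skin, then 45.5, 41.2 and 22.6 CPM at 2, 4 and 6 dpw, and macrophage-like cells 6.66 CPM in unwounded skin, then 6.88, 4.54 and 0.818 CPM at 2, 4 and 6 dpw, with a 2 dpw ratio of 1.03. The complex's borealin, cdca8, had 2.69 CPM in unwounded skin, then 2.03, 3.15 and 0.741 CPM at 2, 4 and 6 dpw in keratinocyte-like cells.

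All 5 spindle genes had ratios under 1 in keratinocyte-like cells at 2 dpw. The spindle assembly factor tpx2 had 6.58 CPM in unwounded skin, then 5.54, 8.7 and 2.15 CPM at 2, 4 and 6 dpw there. The spindle-bundling gene nusap1 had 4.41 CPM in unwounded skin, then 2.64, 4.789 and 1.95 CPM at 2, 4 and 6 dpw, a ratio of 0.599 (0.423 to 0.836) at 2 dpw. The plus-end motor kif11, which pushes the poles apart, had 4.15 CPM in unwounded skin, then 3.86, 3.53 and 1.04 CPM at 2, 4 and 6 dpw. The midzone motors kif23 and kif20a act in cytokinesis. kif23 had 4.56 CPM in unwounded skin, then 3.61, 4.1 and 1.08 CPM at 2, 4 and 6 dpw, and kif20a 4.08 CPM in unwounded skin, then 3.35, 5.8 and 1.28 CPM at 2, 4 and 6 dpw. Of these 5 genes only nusap1 had an interval under 1 at 2 dpw. T cell-like levels of tpx2 were 56.8 CPM in unwounded skin, then 79.4, 60.8 and 46.7 CPM at 2, 4 and 6 dpw, those of kif11 24.4 CPM in unwounded skin, then 29.2, 28 and 17.7 CPM at 2, 4 and 6 dpw and those of nusap1 83.6 CPM in unwounded skin, then 83.1, 81.6 and 65.8 CPM at 2, 4 and 6 dpw. The T cell-like levels of kif20a were 15.3 CPM in unwounded skin, then 15.3, 8.69 and 5.3 CPM at 2, 4 and 6 dpw, a ratio of 0.347 (0.184 to 0.616) at 6 dpw. In fibroblast-like cells tpx2 had 1 UMI in unwounded skin and 95, 77 and 26 UMIs at 2, 4 and 6 dpw, and kif11 3 UMIs and then 32, 33 and 9.

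At the kinetochore, where spindle fibres hold the chromosome, cenpe encodes a motor and cenpf a scaffold. In keratinocyte-like cells cenpf had 7.22 CPM in unwounded skin, then 6.25, 8.0 and 2.39 CPM at 2, 4 and 6 dpw, and cenpe 7.37 CPM in unwounded skin, then 6.45, 7.69 and 1.51 CPM at 2, 4 and 6 dpw, a ratio of 0.206 at 6 dpw. In macrophage-like cells cenpf had 5.88 CPM in unwounded skin, then 8.59, 7.66 and 1.64 CPM at 2, 4 and 6 dpw, with intervals of the 2 and 4 dpw ratios that include 1. The T cell-like levels were 98.6 CPM in unwounded skin, then 115, 103 and 62.9 CPM at 2, 4 and 6 dpw for cenpf and 29.9 CPM in unwounded skin, then 34.9, 30.2 and 21.6 CPM at 2, 4 and 6 dpw for cenpe. The checkpoint genes bub1, bub1bb and ttk hold anaphase until all chromosomes are attached. In keratinocyte-like cells ttk had 2.17 CPM in unwounded skin, then 1.52, 1.95 and 0.606 CPM at 2, 4 and 6 dpw and bub1bb 0.449 CPM in unwounded skin, then 0.406, 0.693 and 0.269 CPM at 2, 4 and 6 dpw. The gene ttk had 20.1 CPM in unwounded skin, then 19.3, 17.8 and 12 CPM at 2, 4 and 6 dpw in T cell-like cells, bub1bb 11 CPM in unwounded skin, then 10.9, 12.1 and 9.9 CPM at 2, 4 and 6 dpw and bub1 3.82 CPM in unwounded skin, then 1.36, 1.51 and 0.707 CPM at 2, 4 and 6 dpw. bub1 was the scarcest member by symbol, with 73 UMIs in all.

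Of chromosome structure, top2a untangles sister DNA and ncapg is a condensin subunit. T cell-like cells had 105 CPM in unwounded skin, then 147, 95.6 and 78.9 CPM at 2, 4 and 6 dpw for top2a, a ratio of 1.4 (1.23 to 1.61) at 2 dpw. Keratinocyte-like cells had 10.8 CPM in unwounded skin, then 8.63, 11.3 and 3.23 CPM at 2, 4 and 6 dpw, with a ratio of 0.799 (0.657 to 0.969) at 2 dpw. In fibroblast-like cells top2a had 1 UMI in unwounded skin and 127, 150 and 57 UMIs at 2, 4 and 6 dpw, with ratios of 76.8 (13.5 to 3057), 36.9 (6.53 to 1468) and 18.3 (3.15 to 735). Such intervals are wide because of the 1 UMI, and their lower ends lie between 3.15 and 13.5. In macrophage-like cells top2a had 26.6 CPM in unwounded skin, then 16.3, 16.5 and 1.64 CPM at 2, 4 and 6 dpw. ncapg had 22 UMIs in macrophage-like cells of unwounded skin and 54, 28 and 0 UMIs at 2, 4 and 6 dpw.

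**Figure D5:**
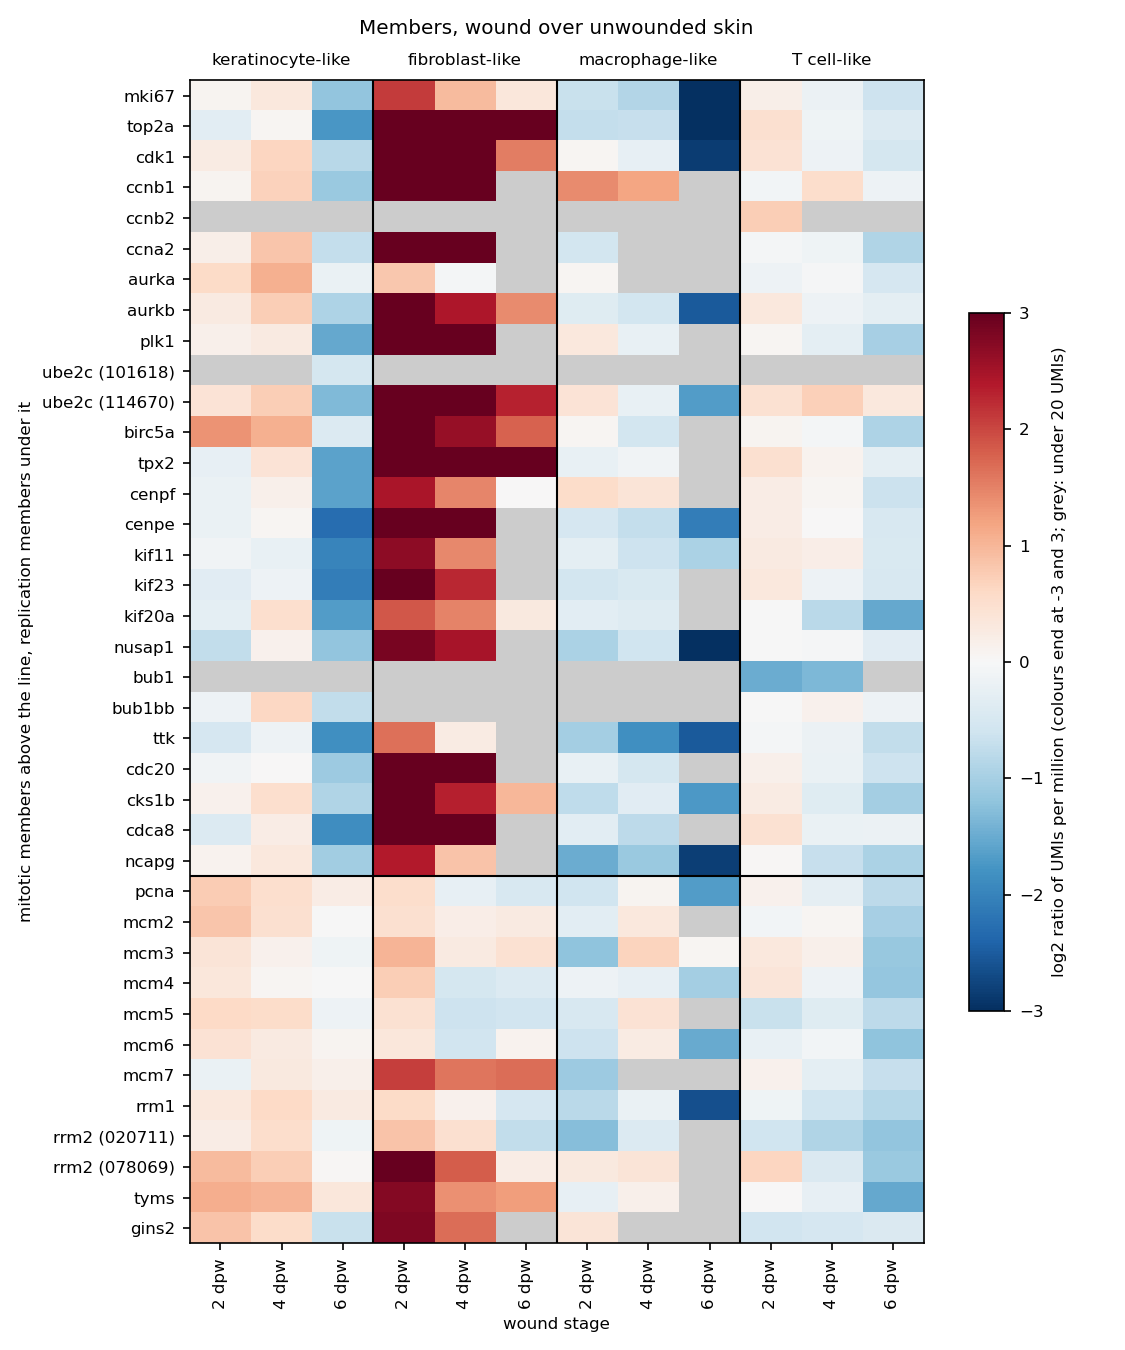
Each row is a member and each column a wound stage in 1 of the 4 main classes, coloured by the log2 ratio of CPM to unwounded skin (grey, under 20 UMIs in both libraries together, and counts of 0 taken as 3 UMIs). Colours end at -3 and 3. All 22 counted mitotic rows are red in fibroblast-like cells at 2 dpw, and in keratinocyte-like cells at 6 dpw the rows above the line are blue and most under it are pale.

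In the replication arm the clamp gene pcna was the most abundant member, with 14699 UMIs in all. Keratinocyte-like cells had 34.7 CPM in unwounded skin, then 58.4, 49.5 and 40.5 CPM at 2, 4 and 6 dpw, with ratios of 1.68 (1.54 to 1.84), 1.43 (1.3 to 1.57) and 1.17 (1.07 to 1.27) at 2, 4 and 6 dpw. Fibroblast-like cells had 53.6 CPM in unwounded skin, then 76.9, 45.4 and 38.5 CPM at 2, 4 and 6 dpw, higher at 2 dpw and lower at 6 dpw, with ratios of 1.44 (1.22 to 1.7) and 0.718 (0.608 to 0.85). T cell-like cells had 369 CPM in unwounded skin, then 401, 305 and 214 CPM at 2, 4 and 6 dpw, and macrophage-like cells 56 CPM in unwounded skin, then 37.1, 59.4 and 17.6 CPM at 2, 4 and 6 dpw. In unwounded skin pcna had 230 CPM in B cell-like and 139 CPM in neutrophil-like cells. Mucous cell-like cells had 37.4 CPM there and red blood cell-like cells 8.75 CPM, from 2 UMIs. The level of pcna in unwounded fibroblast-like cells was thus not particular to them.

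Of the helicase, mcm5 had 11.6 CPM in unwounded skin, then 17.7, 17.1 and 10.4 CPM at 2, 4 and 6 dpw in keratinocyte-like cells, with ratios of 1.52 (1.3 to 1.78) at 2 dpw and 0.897 (0.764 to 1.05) at 6 dpw. mcm2 had 9.91 CPM in unwounded skin, then 17.5, 13.9 and 9.9 CPM at 2, 4 and 6 dpw, mcm3 10.4 CPM in unwounded skin, then 13.5, 11.3 and 9.46 CPM at 2, 4 and 6 dpw and mcm4 13.8 CPM in unwounded skin, then 17.5, 14.4 and 13.6 CPM at 2, 4 and 6 dpw in the same cells. For these subunits the interval of the 6 dpw ratio includes 1. mcm7 had 4.11 CPM in unwounded skin, then 3.61, 5.04 and 4.54 CPM at 2, 4 and 6 dpw, and gins2, of the GINS complex, 1.38 CPM in unwounded skin, then 2.49, 2.02 and 0.875 CPM at 2, 4 and 6 dpw. In fibroblast-like cells mcm5 had 10.7 CPM in unwounded skin, then 14.6, 6.91 and 7.17 CPM at 2, 4 and 6 dpw. There mcm2 had 6.76 CPM in unwounded skin, then 9.43, 7.74 and 8.17 CPM at 2, 4 and 6 dpw, mcm3 4.16 CPM in unwounded skin, then 8.49, 4.99 and 5.75 CPM at 2, 4 and 6 dpw and mcm6 10.9 CPM in unwounded skin, then 13.8, 7.36 and 11.8 CPM at 2, 4 and 6 dpw. The sparse subunit mcm7 had 0.78 CPM in unwounded skin, then 3.3, 2.37 and 2.5 CPM at 2, 4 and 6 dpw, from 3 UMIs in unwounded skin, and gins2 0.52 CPM in unwounded skin, then 3.617, 1.66 and 1.08 CPM at 2, 4 and 6 dpw, from 2 UMIs.

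The T cell-like levels of mcm5 were 44.9 CPM in unwounded skin, then 28.2, 34.8 and 26.2 CPM at 2, 4 and 6 dpw, with a ratio of 0.627 (0.479 to 0.816) at 2 dpw. mcm2 had 48.2 CPM in unwounded skin, then 45.8, 50.6 and 24 CPM at 2, 4 and 6 dpw, mcm3 21.7 CPM in unwounded skin, then 27.1, 24.2 and 9.9 CPM at 2, 4 and 6 dpw and mcm6 36.5 CPM in unwounded skin, then 31.2, 34.8 and 15.9 CPM at 2, 4 and 6 dpw. The levels of gins2 were 8.6 CPM in unwounded skin, then 5.77, 6.05 and 6.37 CPM at 2, 4 and 6 dpw. At 6 dpw mcm2, mcm3, mcm4 and mcm6 had ratios of 0.498, 0.456, 0.451 and 0.436. In macrophage-like cells mcm5 had 4.31 CPM in unwounded skin, then 3.07, 5.82 and 2.45 CPM at 2, 4 and 6 dpw, mcm3 3.92 CPM in unwounded skin, then 1.71, 6.24 and 4.09 CPM at 2, 4 and 6 dpw and mcm4 8.23 CPM in unwounded skin, then 7.4, 6.95 and 4.09 CPM at 2, 4 and 6 dpw. gins2 had no UMI in macrophage-like cells of unwounded skin and 27, 7 and 2 at 2, 4 and 6 dpw.

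Among nucleotide supply genes the rows of rrm2 differed in T cell-like cells. ENSDARG00000078069 had 98.4 CPM in unwounded skin, then 153, 72.6 and 45.3 CPM at 2, 4 and 6 dpw, with a ratio of 1.56 (1.36 to 1.79) at 2 dpw. ENSDARG00000020711 had 93.4 CPM in unwounded skin, then 61.4, 49.9 and 41 CPM at 2, 4 and 6 dpw, with a ratio of 0.658 (0.548 to 0.786) at 2 dpw. Both were lower at 6 dpw, with ratios of 0.460 for the first and 0.439 for the second. In keratinocyte-like cells ENSDARG00000078069 had 6.43 CPM in unwounded skin, then 12.4, 10.6 and 6.6 CPM at 2, 4 and 6 dpw and ENSDARG00000020711 5.46 CPM in unwounded skin, then 6.4, 7.81 and 5.02 CPM at 2, 4 and 6 dpw. In fibroblast-like cells these rows had 2.08 CPM in unwounded skin, then 16.5, 7.36 and 2.42 CPM at 2, 4 and 6 dpw, and 4.16 CPM in unwounded skin, then 7.55, 5.82 and 2.5 CPM at 2, 4 and 6 dpw. In macrophage-like cells they had 3.13 CPM in unwounded skin, then 3.87, 4.11 and 0 CPM at 2, 4 and 6 dpw, and 5.49 CPM in unwounded skin, then 2.28, 4.11 and 0.409 CPM at 2, 4 and 6 dpw. The large subunit gene rrm1 had 94.3 CPM in unwounded skin, then 85.8, 62 and 52.3 CPM at 2, 4 and 6 dpw in T cell-like cells, 8.32 CPM in unwounded skin, then 12.4, 9.15 and 5.84 CPM at 2, 4 and 6 dpw in fibroblast-like cells and 15.3 CPM in unwounded skin, then 8.7, 13.3 and 2.45 CPM at 2, 4 and 6 dpw in macrophage-like cells. Thymidylate synthase, tyms, had 1.82 CPM in unwounded skin, then 12.3, 4.67 and 4.34 CPM at 2, 4 and 6 dpw in fibroblast-like cells and a T cell-like ratio of 0.345 at 6 dpw.

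Other genes of the cell cycle, from lists drawn up with the members, were counted in the same way. Of 87 further genes listed under mitosis, 30 of 53 counted were at least 2-fold higher in fibroblast-like cells at 2 dpw and 21 of 53 at 4 dpw. In keratinocyte-like cells 26 of 79 were at least 2-fold lower at 6 dpw and none higher. This list also holds genes of DNA repair, such as blm and rad54l, so its counts are not of mitosis genes alone. Of 41 further origin licensing and replication genes, 16 of 32 counted were 2-fold higher in fibroblast-like cells at 2 dpw, and 0 of 39 lower or higher in keratinocyte-like cells at 6 dpw. The backgrounds are those given above for the members. Here too, fibroblast-like genes with few UMIs in unwounded skin were counted through the wound library. In fibroblast-like cells at 2 dpw the genes ranked farthest up were spc25, a kinetochore gene, with 48 UMIs at 2 dpw and 1 in unwounded skin, aspm, a spindle pole gene, with 47 and 0, and the condensin gene ncapd2, with 45 and 2. In keratinocyte-like cells at 6 dpw sgo1, which guards sister chromatids, had 4 UMIs against 25 in unwounded skin, plk4, of centriole duplication, 5 against 26, and aspm 39 against 175. In macrophage-like cells at 2 dpw the G1 cyclin ccnd2a had 773 UMIs against 23 in unwounded skin, a ratio of 4.88.

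Over these lists, genes were ranked in each class and stage by their ratio to unwounded skin with counts under 3 UMIs taken as 3, among genes with at least 20 UMIs in both libraries together, and the 3 at either end were taken. The ratios printed are of the counts as they stand, so their order can differ from the rank. In fibroblast-like cells at 2 dpw the genes ranked highest were spc25 (29, interval 4.97 to 1170), aspm (at least 9.47, 47 against 0 UMIs) and ncapd2 (13.6, interval 3.55 to 116), and the lowest cdkn1a (0.363), cdk6 (0.308) and cdkn1ca (0.165). At 4 dpw the genes ranked highest were ncapd2 (8.86, interval 2.37 to 74.6), spc25 (16.2, interval 2.82 to 651) and aspm (at least 5.09, 62 against 0 UMIs), and the lowest cdkn1cb (0.352), cdk6 (0.333) and cdkn1ca (0.116). At 6 dpw the genes ranked highest were uhrf1 (3.85), g2e3 (8.98, interval 1.48 to 367) and chaf1a (2.75), and the lowest ccne2 (0.321), kif15 (0.289) and cdkn1ca (0.287). The genes spc25, aspm and ncapd2 had 1, 0 and 2 UMIs in unwounded skin, so the wound libraries brought them into the count. All genes ranked here come from lists of the cell cycle, and no theme is read from the high ones. Among the low genes at 2 and 4 dpw were cdkn1ca and the G1 kinase gene cdk6.

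In keratinocyte-like cells at 2 dpw the genes ranked highest were cdkn1ca (6.52), atad5a (3.03) and ube2t (2.91), and the lowest knl1 (0.575, interval 0.256 to 1.2), gadd45bb (0.488) and plk4 (0.418). At 4 dpw the genes ranked highest were zwilch (3.29), ube2t (3.27) and melk (3.22), and the lowest ccng2 (0.632), gadd45bb (0.544) and gtse1 (0.241, interval 0.046 to 0.806). At 6 dpw the genes ranked highest were cdkn1ca (3.6), gadd45ab (1.72) and ccne1 (1.71, interval 0.953 to 3.15), and the lowest aspm (0.201), plk4 (0.173) and sgo1 (0.144). The stress-induced gene gadd45bb was low at 2 and 4 dpw.

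In macrophage-like cells at 2 dpw the genes ranked highest were ccnd2a (4.88), prim1 (3.15, interval 1.03 to 15.7) and tacc3 (2.65, interval 0.992 to 9.98), and the lowest cks2 (0.264), stmn1a (0.209) and cdkn1cb (0.16). At 4 dpw the genes ranked highest were prim1 (3.74, interval 1.17 to 19.1), cdk2 (2.65, interval 0.798 to 13.9) and lig1 (2.57), and the lowest gadd45aa (0.38), cks2 (0.337) and cep55l (0.296). At 6 dpw the genes ranked highest were cdk6 (1.96), gadd45bb (1.7) and ccnd2a (1.59, interval 0.912 to 2.82), and the lowest smc4 (0.149), stmn1a (0.084) and smc2 (0.0261, interval 0.000645 to 0.154). The low genes at 6 dpw include smc2 and smc4, the condensin ATPases. They had 1 and 4 UMIs there against 40 and 28 in unwounded skin. Unwounded skin thus brought them into the count, and no theme is read from them.

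In T cell-like cells at 2 dpw the genes ranked highest were ska3 (2.05), zwilch (1.93) and cdkn2aip (1.83), and the lowest cdca7a (0.533), btg2 (0.475) and ccne1 (0.334). At 4 dpw the genes ranked highest were cdkn2aip (1.92), cenpi (1.68) and ccnd1 (1.51), and the lowest blm (0.475), mcm10 (0.416) and gadd45aa (0.297). At 6 dpw the genes ranked highest were cdkn2aip (1.37), cdk6 (1.09) and pold2 (1.07), and the lowest blm (0.296), orc1 (0.197) and rad54l (0.0592, interval 0.00144 to 0.362). Intervals include 1 for zwilch, cdkn2aip and ccne1 at 2 dpw and for cdkn2aip, cenpi, ccnd1, blm and mcm10 at 4 dpw. At 6 dpw they include 1 for cdkn2aip, cdk6 and pold2. No direction is read for these genes at those stages. Of the low genes at 6 dpw, blm and rad54l act in DNA repair and orc1 in origin recognition. In the order blm, orc1 and rad54l they had 4, 4 and 1 UMIs there against 20, 30 and 25 in unwounded skin. Unwounded skin thus brought them into the count, and no theme is read from them.

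Inhibitors of the cycle, among them p21 (cdkn1a) and p57 (cdkn1ca and cdkn1cb), did not follow the members. In fibroblast-like cells 5 of 16 counted were at least 2-fold lower and 1 higher at 2 dpw, where 11.7% of genes were lower, 8 of 17 lower at 4 dpw, where 17.8% of genes were, and 4 of 17 lower at 6 dpw, where 12% of genes were. cdkn1ca had 18 UMIs at 2 dpw, 31 at 4 dpw and 59 at 6 dpw against 66 in unwounded skin, ratios of 0.165, 0.116 and 0.287. cdkn1a had 185 UMIs at 2 dpw against 308 in unwounded skin, a ratio of 0.363. cdkn1cb had a CPM ratio of 0.352 at 4 dpw. In keratinocyte-like cells cdkn1ca had 24 UMIs at 2 dpw and 20 at 6 dpw against 5 in unwounded skin. At 4 dpw 0 of 16 counted inhibitors were 2-fold higher or lower there. Over all genes 9.04% were higher and 6.03% lower, so nothing is read from this count. In T cell-like cells btg2, an antiproliferative gene, had 309 UMIs at 2 dpw against 924 in unwounded skin, a ratio of 0.475.

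Outside all cell cycle lists, the genes whose log2 levels over the 41 groups were most like the summed mitotic members were ncaph2, a condensin II subunit, with a Pearson correlation of 0.905, si:dkey-25o16.4 with 0.903, CABZ01058261.1 with 0.900, knstrn, a kinetochore protein of the spindle, with 0.899, and kpna2, an importin, with 0.887. The histone genes hist1h4l and hist1h2a6 had 0.864 and 0.863. These are descriptions over groups that share libraries. Of the 10 genes most like the mitotic sum, kpna2 and knstrn were least like the replication sum, at 0.612 and 0.658, and CABZ01058261.1 the most, at 0.824.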

How the data were processed

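Single-cell RNA libraries of unwounded skin and of wounds at 2, 4 and 6 dpw were measured, 1 library per stage from 3 pooled fish. The deposited matrices hold raw UMI counts per gene and barcode, made by the authors with Cell Ranger 6.1.2 per the file headers, and the submitters' processing notes also name GRCz11 and Seurat 4.3.0. The matrices hold 7320, 9686, 8904 and 10329 barcodes, and the limits of the study's methods were applied to them. After these, 43306137, 56643608, 53269356 and 56864174 UMIs remained in unwounded skin and at 2, 4 and 6 dpw.

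Cells were integrated with Seurat 5.3.0 and sctransform 0.4.2 (R 4.3.3) on 3354 of 3500 variable genes, leaving out 908 genes (members, the other cell cycle lists and 877 genes with a Pearson correlation over 0.1 to the summed members), with 17 dimensions and resolution 1. Clusters were called by fixed markers. Clusters 26 and 29 were left unnamed after they had been seen, because their leading genes went against the marker name. Scrublet, run per library, called 2 of 29171 cells, so no doublets were removed.

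UMIs were summed per class and library. Intervals at 95% are exact Poisson ones for CPM, conditional binomial ones for ratios and Clopper-Pearson ones for shares. In printed ratios a count of 0 was replaced by a floor of 3 UMIs to give a bound. For calls, list medians and ranks, counts under 3 were taken as 3. A gene was counted with at least 20 UMIs in both libraries together and called at 2-fold. Calculations used Python 3.11.15, numpy 2.4.6, scipy 1.17.1, pandas 2.3.3 and scanpy 1.11.5, and edgeR 4.0.16 gave TMM factors only. The ratio intervals were checked on simulated counts drawn independently for each gene, which is what the intervals assume. This check therefore does not cover UMIs that come together in few cells. No count model or p-value was used, since each group is 1 library.

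Full values were given for mki67, top2a, cdk1, ccnb1, ccna2, plk1, birc5a, pcna, mcm5 and rrm2 and for members whose CPM ratio lay on the other side of 1 from that of their arm, also where the arm's own direction is not read. From the other lists the 3 highest and 3 lowest ratios per class and stage were named, and outside all lists the 10 genes most like the mitotic sum. Members and lists were chosen with earlier results of these data known. Alternatives were another mitochondrial limit, at least 1000 UMIs per cell, other totals and weights, TMM, low members left out, other clusterings, the single cells that lead a sum and other thresholds on shares.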

Additional observations from a re-analysis of the deposited data

Results flagged for a closer look

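Several main classes lay on opposite sides of 1 in their mitotic ratio to unwounded skin, so that the wound was higher in one class and lower in another. None of these differences was tested, since each class has 1 library per stage. They are given as the ratio of the ratios of both classes. At 2 dpw the keratinocyte-like ratio was 1.36 times, the fibroblast-like ratio 11.7 times and the T cell-like ratio 1.47 times the macrophage-like ratio. At 4 dpw the fibroblast-like ratio was 6.99 times the macrophage-like and 5.08 times the T cell-like ratio, and the keratinocyte-like ratio was 1.90 times the macrophage-like and 1.38 times the T cell-like ratio. At 6 dpw the fibroblast-like ratio was 4.55 times the keratinocyte-like, 12 times the macrophage-like and 2.74 times the T cell-like ratio.

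No direction is read for macrophage-like cells at 2 and 4 dpw, keratinocyte-like cells at 2 dpw and T cell-like cells at 4 dpw, so the pairs with them are values only. Pooled clustering gave macrophage-like ratios of 3.11 at 2 dpw and 2.1 at 4 dpw against keratinocyte-like ratios of 1.25 and 1.63, which turns these comparisons round. Equal weight per cell gave 1.06 at 4 dpw in macrophage-like and 1.23 in T cell-like cells. With TMM factors the ratio was 0.972 at 2 dpw in keratinocyte-like and 1.0 at 4 dpw in T cell-like cells, and without the top cell of each library it was 1.04 at 2 dpw in macrophage-like cells. At 6 dpw each pair stayed on opposite sides of 1 in the settings computed.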

How the results depend on the processing

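No paired analysis was possible because each group is 1 library and the labels give no replicate that groups share. Of 238 recomputed values, 140 moved by less than their counting interval and 88 moved further. The remaining 10 fell on the other side of 1 from a main ratio whose interval left out 1. Values that crossed 1 from a main ratio whose interval includes 1 are not among these 10.

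With TMM factors the mitotic ratio to unwounded skin was 0.955 at 2 dpw and 0.585 at 6 dpw over all cells, 0.972 at 2 dpw and 0.464 at 6 dpw in keratinocyte-like cells, and 1.0 at 4 dpw and 0.781 at 6 dpw in T cell-like cells, and the replication ratio was 0.956 at 2 dpw and 0.784 at 6 dpw over all cells. With totals that left out haemoglobin, mitochondrial and ribosomal protein genes the mitotic ratio was 0.91 at 4 dpw over all cells, and 1.23 at 2 dpw, 1.01 at 4 dpw and 0.769 at 6 dpw in T cell-like cells, and the replication ratio 0.824 at 4 dpw over all cells. Giving each cell equal weight made the mitotic ratio 1.03 at 2 dpw, 1.0 at 4 dpw and 0.561 at 6 dpw over all cells, 1.28 at 2 dpw, 1.53 at 4 dpw and 0.568 at 6 dpw in keratinocyte-like cells, 6.6 at 2 dpw and 1.42 at 6 dpw in fibroblast-like cells, 0.887 at 2 dpw, 1.06 at 4 dpw and 0.371 at 6 dpw in macrophage-like cells, and 1.23 at 4 dpw and 0.654 at 6 dpw in T cell-like cells, and the replication ratio 1.04 at 2 dpw and 0.956 at 4 dpw over all cells. Without the most abundant member, mki67 or pcna, the mitotic ratio was 1.024 at 2 dpw and 0.93 at 4 dpw over all cells, and the replication ratio 0.943 at 2 dpw and 0.756 at 4 dpw over all cells. A mitochondrial limit of 10% gave 0.0756 at 6 dpw in macrophage-like cells.

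Pooled clustering without integration gave mitotic ratios of 1.25 at 2 dpw, 1.63 at 4 dpw and 0.605 at 6 dpw in keratinocyte-like cells, 3.86 at 4 dpw in fibroblast-like cells, and 3.11 at 2 dpw, 2.1 at 4 dpw and 0.105 at 6 dpw in macrophage-like cells. Naming single cells by their own markers gave 1.22 at 2 dpw, 1.58 at 4 dpw and 0.764 at 6 dpw in keratinocyte-like cells, 13 at 2 dpw, 6.33 at 4 dpw and 4.43 at 6 dpw in fibroblast-like cells, 0.659 at 2 dpw and 0.44 at 6 dpw in macrophage-like cells, and 1.26 at 2 dpw, 1.11 at 4 dpw and 0.808 at 6 dpw in T cell-like cells. The next 2 settings were chosen after the data were seen. Without the cell with most mitotic UMIs in each library the ratio was 1.04 at 2 dpw, 0.835 at 4 dpw and 0.108 at 6 dpw in macrophage-like cells. Without cells that held at least 2 T cell markers it was 1.22 at 4 dpw in keratinocyte-like cells, and 0.556 at 2 dpw, 0.467 at 4 dpw and 0.0619 at 6 dpw in macrophage-like cells. The cause of these shifts was not tested.

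The share of cells with mitotic members, thinned to 1000 UMIs, was 1.73% for unwounded skin, 2.66% at 2 dpw and 3.01% at 4 dpw in keratinocyte-like cells, 2.18% at 2 dpw in macrophage-like cells, and 7.63% for unwounded skin, 9.1% at 2 dpw, 8.42% at 4 dpw and 4.99% at 6 dpw in T cell-like cells. With at least 3 members it was 0.676% for unwounded skin, 0.336% at 2 dpw, 0.787% at 4 dpw and 0.214% at 6 dpw in keratinocyte-like cells, 0.524% at 2 dpw and 0.305% at 4 dpw in fibroblast-like cells, 0% for unwounded skin and 0.416% at 2 dpw in macrophage-like cells, and 2.66% for unwounded skin, 4.04% at 2 dpw, 3.72% at 4 dpw and 1.96% at 6 dpw in T cell-like cells. Unthinned it was 4.77% for unwounded skin, 9.64% at 2 dpw, 9.12% at 4 dpw and 3.57% at 6 dpw in keratinocyte-like cells, 0.735% for unwounded skin, 11% at 2 dpw, 5.79% at 4 dpw and 1.96% at 6 dpw in fibroblast-like cells, 5.34% for unwounded skin, 5.36% at 2 dpw and 4.65% at 4 dpw in macrophage-like cells, and 9.38% for unwounded skin, 10.6% at 2 dpw, 10.9% at 4 dpw and 5.53% at 6 dpw in T cell-like cells. Without pcna the share of cells with replication members alone was 0.296% for unwounded skin in keratinocyte-like cells, 0% for unwounded skin in macrophage-like cells, and 0.782% for unwounded skin, 1.31% at 2 dpw and 1.08% at 4 dpw in T cell-like cells.

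The fibroblast-like mitotic ratios stayed above 1 and the 6 dpw mitotic ratios of the other 3 main classes under 1 in each setting computed. Replication sums of single classes were not recomputed, so their ratios hold for the main setting only. The description of promoter motifs that had been planned was not run.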
